A study of Mus musculus with 12 samples.

Results

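The 9 keratin genes described here are Krt4, Krt7, Krt8, Krt18, Krt19, Krt20, Krt23, Krt80 and Krt84, of 27 keratin genes and 18068 genes in the deposited count table. They were chosen by name from the keratin rows with the counts of these libraries already known, so their levels and fold changes are a description and carry no test. RNA came from enteroids, 3-dimensional cultures of intestinal epithelium, grown from the ileum of wild-type C57Bl/6 mice, and was read by directional poly(A) sequencing in 4 groups of 3 libraries. The groups were enteroids given both butyrate (1 mM, 48 h) and IL-13 (20 ng/mL, 72 h), enteroids given IL-13 alone (20 ng/mL, 72 h), enteroids given butyrate alone (1 mM, 48 h), and untreated enteroids, and all 4 came from the same strain and culture medium. Nothing in the labels says whether the 3 libraries of a group came from separate cultures or mice, so every error and p-value measures only the spread between these libraries, which may be technical. The culture holds epithelium and none of the immune, stromal or bacterial partners of the gut wall is named in the labels.

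Keratins are the intermediate filament proteins of epithelial cells. Each filament is built from pairs of a type I (acidic) and a type II (basic) keratin, and in the single-layered intestinal lining the pairs are formed mainly by Krt8 as type II with Krt18, Krt19 or Krt20 as type I. The filaments attach to desmosomes between cells and to hemidesmosomes at the base, and keep the sheet of cells intact under strain. IL-13, a type 2 cytokine, signals to epithelium through STAT6, and butyrate is a bacterial fatty acid that inhibits histone deacetylases. Of the 9 genes, 4 were type I (Krt18, Krt19, Krt20, Krt23) and 5 were type II (Krt4, Krt7, Krt8, Krt80, Krt84).

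The genes lie in both keratin clusters of the mouse genome (mm10, coordinates as the deposited table gives them). On chromosome 11 the minus strand holds Krt20 (99428403 to 99438150), Krt23 (99477974 to 99493137) and Krt19 (100140810 to 100148665). On chromosome 15 lie Krt80 (101349571 to 101370125, minus), Krt7 (101411043 to 101430313, plus), Krt84 (101525026 to 101532820, minus), Krt4 (101918536 to 101924735, minus), Krt8 (101996711 to 102004342, minus) and the type I gene Krt18 (102028216 to 102032026, plus). Opposite-strand annotated genes overlap Krt80 (Gm35853 and Mir1941), Krt7 (Gm671) and Krt8 (Gm36026). The sources used here do not say whether counting used strand, so reads of these pairs could not be told apart.

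Promoters are printed for Krt84, Krt23 and Krt18, which had the highest log2 fold changes with IL-13, and for Krt20, the one of the 9 called higher with butyrate, where 5.14% of all genes tested were. Each runs from 250 bases before to 50 bases after the annotated start of transcription, 5′ to 3′ on the strand of the gene (RefSeq, GRCm38.p6), and capitals mark a match to a motif searched.
Krt84 (chr15:101532771-101533070, - strand): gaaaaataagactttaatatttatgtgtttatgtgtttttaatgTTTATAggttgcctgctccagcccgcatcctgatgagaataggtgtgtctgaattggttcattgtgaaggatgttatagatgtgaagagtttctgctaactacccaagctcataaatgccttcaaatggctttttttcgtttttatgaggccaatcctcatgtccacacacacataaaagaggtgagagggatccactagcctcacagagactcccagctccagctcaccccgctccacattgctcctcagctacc
Krt23 (chr11:99493071-99493370, - strand): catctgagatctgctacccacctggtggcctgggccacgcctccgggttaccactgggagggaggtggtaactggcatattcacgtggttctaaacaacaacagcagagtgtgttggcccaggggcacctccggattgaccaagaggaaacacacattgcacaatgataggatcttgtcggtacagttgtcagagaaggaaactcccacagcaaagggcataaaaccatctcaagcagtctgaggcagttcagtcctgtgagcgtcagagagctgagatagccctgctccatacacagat
Krt18 (chr15:102027966-102028265, + strand): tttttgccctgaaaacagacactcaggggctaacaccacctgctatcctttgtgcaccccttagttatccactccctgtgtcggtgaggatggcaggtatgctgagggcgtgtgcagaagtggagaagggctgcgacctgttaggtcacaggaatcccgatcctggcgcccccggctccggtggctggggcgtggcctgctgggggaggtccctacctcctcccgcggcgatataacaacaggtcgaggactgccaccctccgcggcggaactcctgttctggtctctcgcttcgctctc
Krt20 (chr11:99438104-99438403, - strand): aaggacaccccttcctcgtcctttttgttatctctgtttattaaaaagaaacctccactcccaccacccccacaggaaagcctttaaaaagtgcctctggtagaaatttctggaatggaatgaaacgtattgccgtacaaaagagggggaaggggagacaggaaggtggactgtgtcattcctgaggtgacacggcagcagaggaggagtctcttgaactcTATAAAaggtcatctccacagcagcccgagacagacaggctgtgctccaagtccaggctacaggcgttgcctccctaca
RefSeq windows were at hand for 6 of the 9 genes (Krt7, Krt8, Krt18, Krt20, Krt23 and Krt84). They were searched on both strands for the STAT6-type letters TTCNNNNGAA, the STAT-type letters TTCNNNGAA, the AP-1 type letters TGANTCA, the GC box GGGCGG and the TATA box TATAAA. The STAT6-type, STAT-type and AP-1 type letters were in 0 of the 6 windows, and in 6.95%, 8.30% and 7.81% of 32851 mouse promoter windows of the same length. The TATA box letters were in 3 of the 6, against 13.6% of all windows: 29 bases before the start in Krt20, across the start in Krt8 (overlapping matches on both strands, at -3 and -1), and far upstream in Krt84, as TTTATA at -206. The GC box was in 1 of the 6, Krt7, with 4 matches, against 35.7% of all windows. Windows of Krt18 and Krt23 held none of the 5 motifs. GC content ran from 42.7% in the Krt84 window to 66.3% in that of Krt7. A match is a stretch of letters, and no match says only that these letters are not in this window.

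Library totals were 13867982 to 15618074 counts with both agents, 14239405 to 15008598 with IL-13, 17006538 to 24294456 with butyrate and 16303915 to 22558599 in untreated enteroids. Levels are given as CPM, counts divided by the TMM-normalised library size and scaled to a common total. Epithelial markers were high in every group (Epcam, Cdh1, Vil1, Cdx2 and Cldn3 summed to 6404 to 6805 CPM with both agents, 5375 to 5755 with IL-13, 4852 to 5638 with butyrate and 4842 to 5033 untreated). The mesenchyme markers measured, 5 of 7, summed to at most 4.22 CPM in any library, and the immune ones, 5 of 6, to 9.68 to 17.4. The mesothelium markers measured, 3 of 4, summed to 231 to 364 CPM, nearly all of it Msln (252 to 310 CPM in group means). Their part in the keratin values was not tested. Butyrate replicate 2 and butyrate + IL-13 replicate 3 stood apart in Lars2, a mitochondrial leucyl-tRNA synthetase gene, with 5305 and 6113 CPM by library total, against 458 to 1509 in the other 10 libraries. In bulk RNA, fewer cells of a type and less RNA per cell cannot be told apart. The 9 keratin genes took 0.569% to 0.740% of all counts of a library and 99.8% to 99.9% of its keratin counts.

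Per kilobase of transcript, Krt19 stood first in every group, at 2478 ± 102 CPM per kb with both agents, 2391 ± 51.8 with IL-13, 1987 ± 353 with butyrate and 2110 ± 22.3 in untreated enteroids (SD, n = 3 each). Krt18 came next with both agents (827 ± 40.8 CPM per kb, against 742 ± 15.5 for Krt8), whereas in untreated enteroids Krt8 (563 ± 24.6) and Krt18 (517 ± 30.7) lay within their spread of each other. With IL-13 alone (711 ± 18.6 for Krt8, 708 ± 27.0 for Krt18) and with butyrate alone (562 ± 77.6 for Krt8, 572 ± 23.5 for Krt18) this pair was also within its spread. Krt20, Krt23 and Krt7 formed a lower tier of 110 to 218 CPM per kb in group means. The place of Krt7 rests on the long transcript used for it, 4094 bases. Before division by length its group means were 500 to 622 CPM, above Krt20 (301 to 420) and Krt23 (173 to 270). The type II share below uses the same length. Krt4, Krt84 and Krt80 lay far below, at 12.1 CPM per kb or less, and here the order depended on the group: Krt84 was above Krt4 with both agents (12.1 ± 1.40 against 0.538 ± 0.194) and below it in untreated enteroids (0.532 ± 0.0548 against 9.21 ± 1.67).

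**Figure D1:**
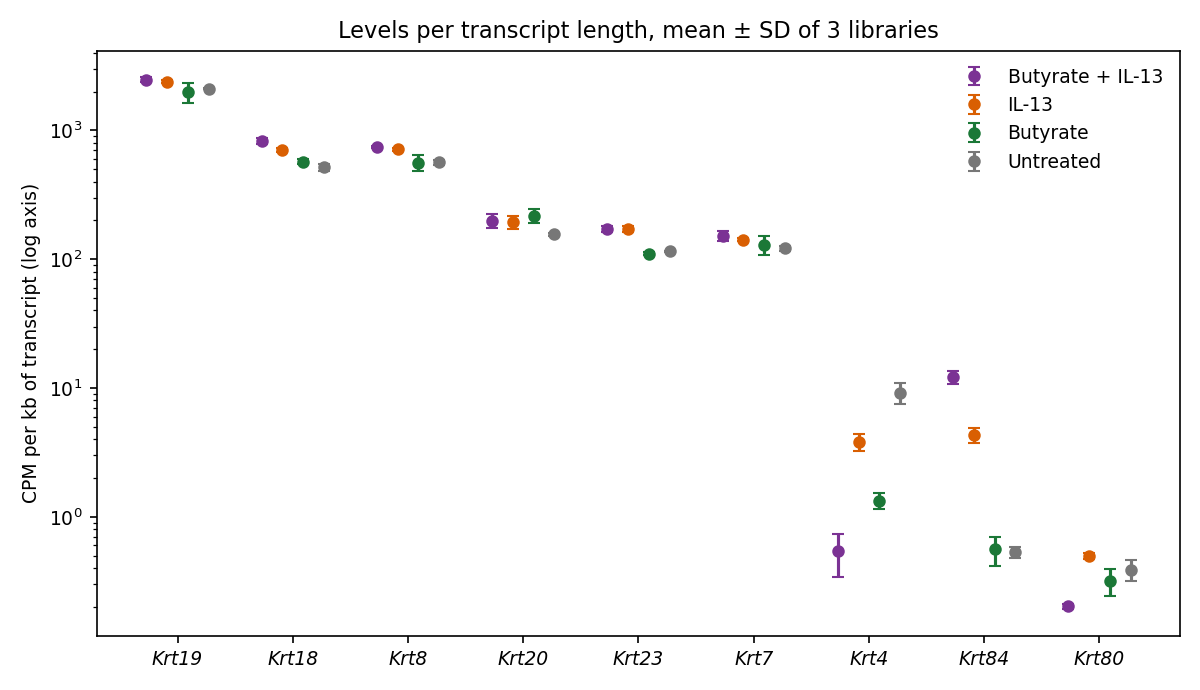
Level of each of the 9 keratin genes in CPM per kb of transcript (log axis), mean with SD of 3 libraries, by group. The 6 genes on the left stay within a narrow band across groups, while Krt4 and Krt84 cross: Krt84 is at 12.1 with both agents and 0.532 untreated, Krt4 at 0.538 with both agents and 9.21 untreated.

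The summed level of the 9 genes was 7853 ± 145 CPM with both agents, 7421 ± 61.3 with IL-13, 6178 ± 872 with butyrate and 6175 ± 119 in untreated enteroids (SD, n = 3 each). All 6 libraries given IL-13 (7353 to 8020 CPM) lay above the untreated ones (6040 to 6264), and the butyrate libraries spread from 5413 to 7128. Scaled by library totals alone, these sums were closer together, at 7020 CPM with both agents, 7237 with IL-13, 6468 with butyrate and 6765 in untreated enteroids. The separation from untreated was then lost. By share of all counts, both-agent replicate 3 (0.679%) lay below untreated replicates 2 (0.681%) and 3 (0.693%). The share of type II keratin in the length-scaled sum changed little: 19.8% ± 0.689 with both agents, 19.9% ± 0.452 with IL-13, 19.3% ± 0.502 with butyrate and 19.3% ± 0.505 untreated, with overlapping ranges. The share of Krt19 was 54.1% ± 1.19 with both agents, 55.3% ± 0.852 with IL-13, 55.3% ± 2.19 with butyrate and 58.7% ± 0.944 in untreated enteroids, and the untreated range (57.7% to 59.5%) did not overlap that of both agents (53.0% to 55.4%) or of IL-13 (54.3% to 56.0%).

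Krt8 is the main type II keratin of simple epithelia and the partner of Krt18, Krt19 and Krt20. It had 1419, 1476 and 1466 CPM with both agents, 1427, 1394 and 1354 with IL-13, 1093, 952 and 1256 with butyrate, and 1049, 1114 and 1144 in untreated enteroids. The 6 libraries with IL-13 were all above the 6 without it, and the butyrate libraries lay around the untreated ones. The log2 fold change over untreated was 0.40 ± 0.09 with both agents, 0.34 ± 0.09 with IL-13 and -0.00 ± 0.09 with butyrate (± SE of the fit over all 12 libraries, here and below). Scaled by library totals alone it was 0.11 with both agents and 0.17 with IL-13.

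Krt18, the classical type I partner of Krt8, is the next keratin gene on chromosome 15. It had 1252, 1177 and 1136 CPM with both agents, 1055, 977 and 1021 with IL-13, 830, 784 and 850 with butyrate, and 700, 741 and 789 in untreated enteroids. Here the 4 groups stood in steps: both agents above IL-13, IL-13 above butyrate, and butyrate overlapping the untreated libraries at its lowest value. Over untreated, the log2 fold change was 0.68 ± 0.08 with both agents, 0.45 ± 0.08 with IL-13 and 0.14 ± 0.08 with butyrate. Over IL-13 alone it was 0.22 ± 0.08 with both agents, a difference that passed the threshold in 9 of 20 alternative fits, with a log2 fold change of 0.20 to 0.27 when 1 library was left out; the call was lost without butyrate replicate 1, untreated replicate 2 or 3, any IL-13 replicate, or both-agent replicate 1 or 2, and at 0.22 with no filter on low counts. Scaled by library totals alone it was 0.10 and not called, and the values over untreated were 0.38 with both agents and 0.28 with IL-13, both still called.

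Krt19, the smallest keratin and the most abundant of the 9 here, had 3879, 4076 and 3758 CPM with both agents, 3675, 3826 and 3805 with IL-13, 2938, 2698 and 3759 with butyrate, and 3302, 3366 and 3309 in untreated enteroids. Libraries with both agents or IL-13 were above the untreated ones, while butyrate replicate 3 reached the level of the IL-13 groups and its other 2 replicates lay below untreated. Relative to untreated enteroids its log2 fold change was 0.23 ± 0.10 with both agents, 0.18 ± 0.10 with IL-13 and -0.09 ± 0.10 with butyrate. With both agents it turned to -0.06 when libraries were scaled by their totals alone, and it was called there in 8 of 20 alternative fits: the call was lost, with log2 fold changes of 0.20 to 0.24, without any one untreated or IL-13 replicate, butyrate replicate 1, or butyrate + IL-13 replicate 2, with no filter on low counts (0.22), and among genes averaging 50 counts or more (0.21).

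Krt7, a type II keratin of ducts and other simple epithelia, had 560, 662 and 644 CPM with both agents, 565, 577 and 602 with IL-13, 526, 439 and 615 with butyrate, and 478, 499 and 523 in untreated enteroids. The IL-13 and both-agent libraries were above the untreated ones, and butyrate overlapped both. On the log2 scale the difference from untreated was 0.31 ± 0.10 with both agents, 0.22 ± 0.10 with IL-13 and 0.07 ± 0.10 with butyrate. The call for both agents was lost without untreated replicate 1 (0.28) or butyrate + IL-13 replicate 2 (0.27), and with library totals alone the value was 0.02.

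Krt20 is the type I keratin of differentiated villus enterocytes and goblet cells. It had 372, 340 and 435 CPM with both agents, 332, 372 and 413 with IL-13, 424, 368 and 469 with butyrate, and 309, 296 and 298 in untreated enteroids. Every treated library was above every untreated one, and the 3 treated groups overlapped one another. Its fold change over untreated, on the log2 scale, was 0.35 ± 0.10 with both agents, 0.31 ± 0.10 with IL-13 and 0.48 ± 0.10 with butyrate, the highest of the 9 with butyrate. The IL-13 call was lost without untreated replicate 2 or 3 (0.30 each), IL-13 replicate 2 (0.31) or IL-13 replicate 3 (0.22). Scaled by library totals alone, the value was 0.05 with both agents and 0.14 with IL-13, neither of them called, and 0.42 with butyrate, still called. The sum of 5 villus-tip enterocyte markers (Ada, Nt5e, Apoa4, Slc28a2, Klf4) was 1301 to 2051 CPM with both agents, 933 to 972 with IL-13, 612 to 847 with butyrate and 480 to 504 in untreated enteroids, and Apoa4 held most of it (1088 ± 372 CPM with both agents, 573 ± 12.7 with IL-13, 571 ± 120 with butyrate and 353 ± 8.84 untreated; SD, n = 3 each). By edgeR's quasi-likelihood test all 5 rose over untreated with both agents, and all but Ada (0.47 ± 0.21, adjusted p = 0.075) rose with IL-13. With butyrate Apoa4 (log2 0.69 ± 0.17, adjusted p = 0.015) and Nt5e (0.88 ± 0.12, adjusted p = 9.2e-05) rose, Klf4 fell (-0.45 ± 0.10, adjusted p = 0.0067), and Ada (0.16 ± 0.21, adjusted p = 0.72) and Slc28a2 (-0.44 ± 0.24, adjusted p = 0.31) were not called. Of 5 general enterocyte markers (Alpi, Fabp1, Fabp2, Apoa1, Sis) only Fabp2 fell over untreated, with both agents (-2.83 ± 0.14, adjusted p = 1.7e-11 in edgeR), IL-13 (-1.89 ± 0.13, adjusted p = 2.8e-09) and butyrate (-0.47 ± 0.12, adjusted p = 0.02). Sis rose with both agents (0.49 ± 0.13, adjusted p = 0.0031 in edgeR) and butyrate (0.56 ± 0.13, adjusted p = 0.01). Apoa1 rose with both agents (0.61 ± 0.17, adjusted p = 0.0055) and Fabp1 with IL-13 (0.53 ± 0.17, adjusted p = 0.019). Alpi was not called. These 5 summed to 3137 to 4860 CPM with both agents, 3084.5 to 3243 with IL-13, 3459 to 3857 with butyrate and 2599 to 2896 untreated. Goblet markers (Muc2, Clca1, Fcgbp) went the other way with both agents, at 1130 to 1303 CPM summed, against 1794 to 2673 untreated. All 3 fell there: Muc2 by 1.08 (SE 0.22, adjusted p = 0.00032 in edgeR), Clca1 by 3.28 (SE 0.44, 4.7e-06) and Fcgbp by 0.93 (SE 0.14, 2.2e-05). With IL-13 only Clca1 was called (-1.97 ± 0.37, adjusted p = 0.0003 in edgeR), and with butyrate only Fcgbp (-0.54 ± 0.14, 0.024). The part of these marker sets in the Krt20 values was not tested.

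Krt23 is a type I keratin whose human form was described in pancreatic cancer cells exposed to butyrate. In these mouse enteroids it had 278, 253 and 279 CPM with both agents, 279, 273 and 254 with IL-13, 178, 168 and 173 with butyrate, and 181, 177 and 182 in untreated enteroids. The 6 libraries with IL-13 and the 6 without formed separate sets, with no overlap between them, and butyrate overlapped untreated. The log2 fold change over untreated was 0.59 ± 0.07 with both agents, 0.58 ± 0.07 with IL-13 and -0.06 ± 0.07 with butyrate. Scaled by library totals alone it was 0.29 with both agents and 0.41 with IL-13, both still called. Between both agents and IL-13 it was 0.01 ± 0.07.

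**Figure D2:**
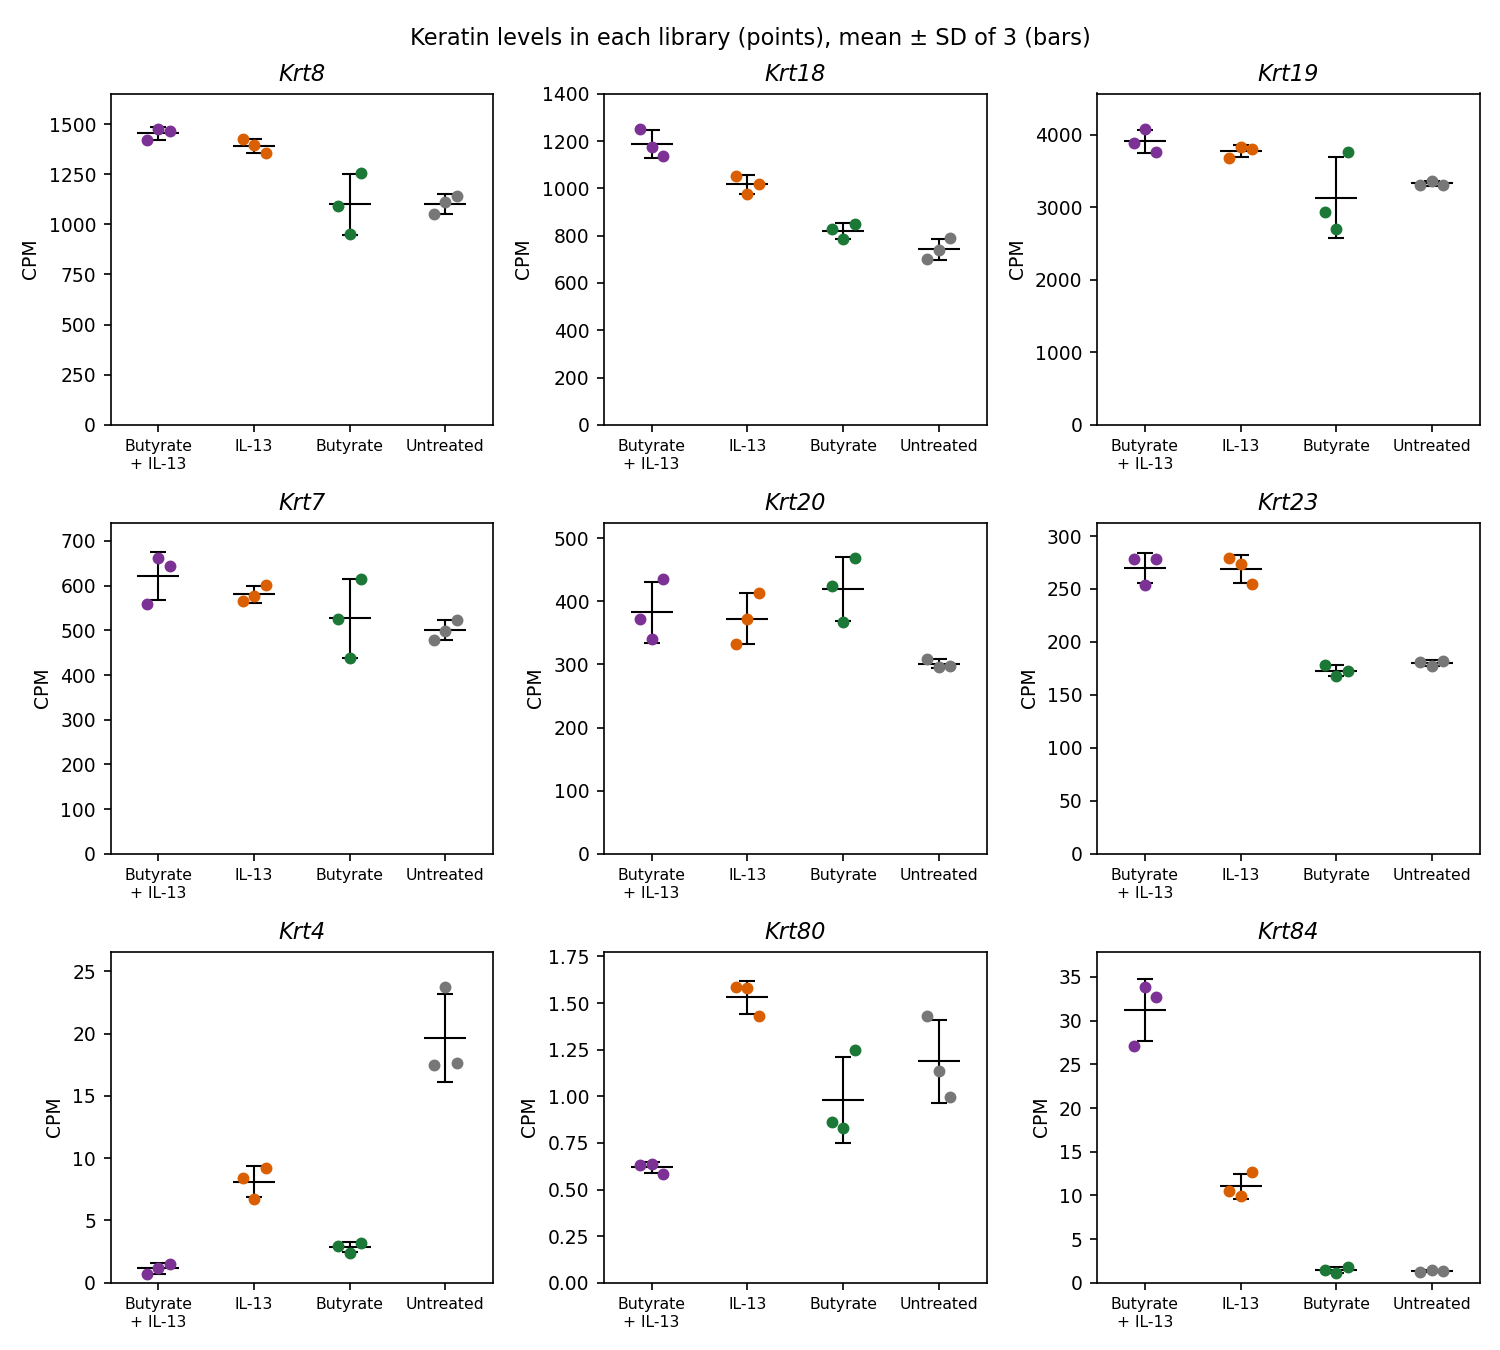
CPM of the 9 keratin genes in each library (points), with the mean and SD of 3 libraries (bars), in the order both agents, IL-13, butyrate, untreated. Krt23 splits by IL-13, at 253 to 279 CPM with it and 168 to 182 without, whereas Krt20 is lowest in the untreated libraries alone.

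Krt84 is a type II keratin of the hair and nail family, and it had the largest fold change of the 9. It had 27.1, 33.8 and 32.7 CPM with both agents, 10.5, 9.89 and 12.7 with IL-13, 1.41, 1.09 and 1.81 with butyrate, and 1.22, 1.50 and 1.39 in untreated enteroids. The counts behind these levels were 343 to 447 with both agents, 144 to 186 with IL-13, 21 to 36 with butyrate and 25 to 37 untreated. The both-agent libraries were above all IL-13 libraries, which were above all others, and butyrate alone overlapped untreated. Its level was 22.7-fold higher with both agents (log2 4.51 ± 0.19), 8.02-fold higher with IL-13 (3.00 ± 0.19) and 1.04-fold higher with butyrate (0.06 ± 0.24), each over untreated. Over IL-13 alone it was 2.83-fold higher with both agents (1.50 ± 0.15).

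Butyrate thus went with a higher Krt84 level in the presence of IL-13 and with no shift of that size in its absence, and the difference between the 2 butyrate effects, the interaction, was 1.44 ± 0.28 on the log2 scale. The interaction kept its direction in all 19 alternatives fitted, at 1.25 to 1.61. It was called in 13 of them, which is a description, since the gene was chosen with these counts known. The call was lost without untreated replicate 2 or 3, butyrate replicate 1 or IL-13 replicate 1 or 2, at values of 1.36 to 1.43. Without both Lars2-high libraries it was also lost, at 1.25. Of 5 fixed hair and nail markers, only Krt86 was measured here, and it was at 0 in every library outside the IL-13 group, where it reached 0.137 CPM. Villus-tip enterocyte markers, whose sums stand beside Krt20 above and are mostly Apoa4, were also highest with both agents. Over IL-13 alone, Ada (log2 0.74 ± 0.21, adjusted p = 0.015 in edgeR), Apoa4 (0.92 ± 0.17, 0.00088) and Nt5e (0.50 ± 0.11, 0.0035) rose with both agents. Slc28a2 (0.19 ± 0.21, adjusted p = 0.57 in edgeR) and Klf4 (0.23 ± 0.10, 0.097) were not called there. The part of these markers in the Krt84 values was not tested.

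Krt4 is a type II keratin of the upper layers of internal stratified epithelia such as the oesophagus, where it pairs with Krt13. It went the other way: 0.712, 1.19 and 1.54 CPM with both agents, 8.44, 6.73 and 9.19 with IL-13, 2.97, 2.39 and 3.17 with butyrate, and 17.5, 23.7 and 17.7 in untreated enteroids. The counts were 9 to 21 with both agents, 98 to 135 with IL-13, 46 to 76 with butyrate and 319 to 586 untreated. No 2 of the 4 groups overlapped. Its level was 16.9-fold lower with both agents (log2 -4.08 ± 0.24), 2.42-fold lower with IL-13 (-1.28 ± 0.18) and 6.89-fold lower with butyrate (-2.79 ± 0.20), each over untreated. The interaction was -0.02 ± 0.28, so that on the log scale the 2 single-agent differences added up to the joint one within the error.

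Of 5 fixed markers of stratified epithelium, 4 were measured (Krt5, Krt14, Krt13 and Trp63, not Krt6a), and they were near 0 in every group. They summed to 0.293 to 0.791 CPM with both agents and 0 to 0.216 with IL-13. The sums were 0 to 0.0782 with butyrate and 0.222 to 0.462 in untreated enteroids. Other genes of stratified epithelia varied. In group means Sprr1a had 42.0 to 51.8 CPM and Dsg3 7.60 to 31.1, while Ivl had 0.369 or less. The sum of the 3 enteroendocrine markers Chga, Chgb and Neurod1 was 154 to 279 CPM with both agents, 1109 to 1202 with IL-13, 421 to 513 with butyrate and 954 to 1280 in untreated enteroids. Like Krt4 it was lowest with both agents and next lowest with butyrate, but with IL-13 alone it overlapped the untreated range, which Krt4 did not. Chgb held most of the sum (977 ± 146 CPM untreated, SD). The interaction was -1.10 ± 0.21 for Chga (adjusted p = 0.015 in edgeR), -1.13 ± 0.22 for Chgb (0.019) and -1.29 ± 0.30 for Neurod1 (0.054). That of Krt4 was -0.02 ± 0.28. The part of these markers in the Krt4 values was not tested.

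Krt80, a type II keratin that in human epithelia lies near desmosomal plaques, was the least abundant of the 9. It had 0.633, 0.637 and 0.585 CPM with both agents, 1.59, 1.58 and 1.43 with IL-13, 0.861, 0.832 and 1.25 with butyrate, and 1.43, 1.13 and 0.998 in untreated enteroids, from 8 counts in each both-agent library to 34 counts in an untreated one. The both-agent libraries were below all others, and IL-13 and butyrate each overlapped untreated. The log2 fold change was -0.94 ± 0.38 with both agents over untreated and -1.30 ± 0.38 over IL-13 alone. The call over untreated held in 7 of 19 alternative fits, and was lost without untreated replicate 1 (-0.79) or 2 (-0.98), butyrate replicate 2 (-0.94), IL-13 replicate 2 (-0.94), any both-agent replicate (-0.87 to -0.96) or both Lars2-high libraries (-0.90), in DESeq2 and in a fit of the 2 groups alone (-0.92 each), and with no filter on low counts (-0.95). The call over IL-13 was lost without IL-13 replicate 1 (-1.27) or 2 (-1.28), both-agent replicate 1 (-1.30) or 3 (-1.24), or both Lars2-high libraries (-1.26).

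**Figure D3:**
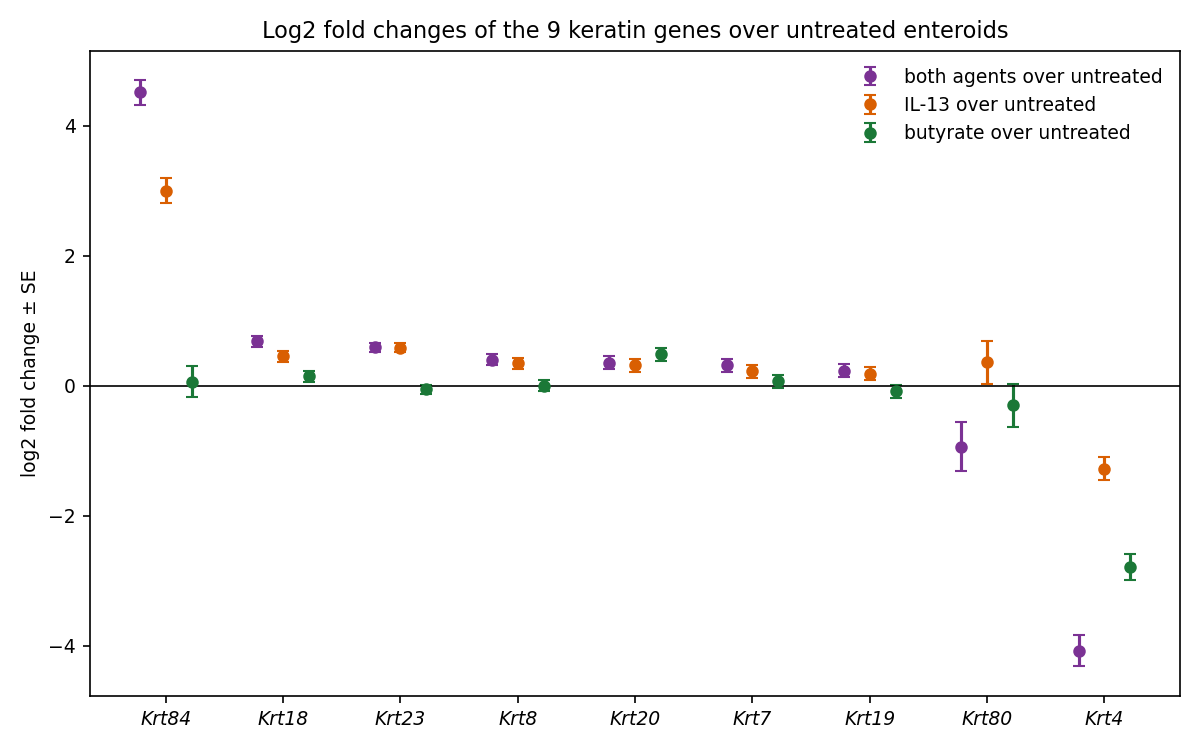
Log2 fold change over untreated enteroids, with its SE, of each keratin gene for both agents, IL-13 and butyrate. Krt84 (4.51, 3.00 and 0.06) and Krt4 (-4.08, -1.28 and -2.79) are at the ends, and the 6 abundant keratins lie between -0.09 and 0.68.

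All 9 genes passed the filter on low counts, and their calls are listed as a description, since the choice of genes used these contrasts. With both agents over untreated, 7 were called higher and 2 lower, where the same test called 28.2% of 13750 genes higher and 31.5% of them lower. With IL-13 over untreated 5 were higher and 1 lower, where 21.8% and 21.7% of all genes were. With butyrate over untreated 1 was higher (Krt20) and 1 lower (Krt4), where 5.14% and 2.76% of all genes were. The comparisons over untreated share their 3 untreated libraries. The median log2 fold change over the 9 genes was 0.35 with both agents (-0.05 over all genes tested), 0.34 with IL-13 (-0.01) and -0.00 with butyrate (-0.01).

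With both agents over IL-13, 2 keratins were higher (Krt18, Krt84) and 2 lower (Krt4, Krt80), where 9.85% of all genes were higher and 11.3% lower. With both agents over butyrate 5 were higher (Krt8, Krt18, Krt19, Krt23, Krt84) and 1 lower (Krt4), where 22.9% and 24.9% of all genes were. In that comparison the Krt19 log2 fold change of 0.32 was not called with library totals alone (0.09), in a fit of the 2 groups alone (0.33), or without butyrate replicate 1 (0.27) or 2 (0.22), and its groups overlapped. The Krt8 value of 0.40 was not called with library totals alone (0.17). The interaction called 1 keratin higher (Krt84) and 0 lower, where it called 0.255% of all genes higher and 0.611% lower. Scaled by library totals alone, the median of all genes moved to -0.34 with both agents, -0.18 with IL-13 and -0.08 with butyrate, each over untreated, and the share of higher calls among all calls was 23.9% with both agents (47.3% with TMM), 28.1% with IL-13 (50.1% with TMM) and 47.0% with butyrate (65.1% with TMM). Under that scaling 3 keratins were called higher (Krt18, Krt23, Krt84) and 2 lower (Krt4, Krt80) with both agents. Without both Lars2-high libraries, the log2 fold change of both agents over untreated was 4.47 for Krt84, -4.36 for Krt4, 0.71 for Krt18, 0.56 for Krt23, 0.39 for Krt8, 0.29 for Krt7, 0.26 for Krt19, 0.24 for Krt20 and -0.90 for Krt80.

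The authors' deposited table gave their own log2 fold changes of IL-13 over untreated, from a DESeq comparison: 3.02 for Krt84, 0.59 for Krt23, 0.46 for Krt18, 0.34 for Krt8, 0.31 for Krt20, 0.22 for Krt7, 0.19 for Krt19, 0.37 for Krt80 and -1.27 for Krt4.

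The other 18 keratin genes in the table were nearly silent, and 13 of them were under the filter: Krt1, Krt2, Krt5, Krt12, Krt13, Krt14, Krt16, Krt32, Krt36, Krt39, Krt79, Krt86 and Krt222, with 0 to 20 counts in any library. The 5 tested were Krt10, Krt15, Krt27, Krt78 and a row the table names Krt83. Krt10 (46 to 135 counts) and Krt15 (23 to 82) were better counted than Krt80 (8 to 34), so the 9 genes are not simply the most abundant keratins. By edgeR's quasi-likelihood test with Benjamini-Hochberg adjustment over all genes, 0 of the 5 were called with IL-13 or with butyrate over untreated; 0 had an unadjusted p under 0.05, and DESeq2 called 0. In a fit of the IL-13 and untreated libraries alone Krt27 was called with IL-13 (log2 1.37, adjusted p = 0.039 in edgeR, against 0.14 in the fit of all 12 libraries), and with no filter on low counts 1 other keratin, Krt32, was called higher with IL-13. With no filter 4 were called with both agents over untreated (Krt13, Krt15 and Krt16 higher, the Krt83 row lower), against 2 with it (1 higher, 1 lower). Krt16, which the filter left out, had 3, 8 and 20 counts with both agents, 0 to 3 with IL-13 and 0 in all 6 libraries without IL-13. Krt15, a type I keratin of basal cells in stratified epithelia, had 3.96 ± 1.78 CPM with both agents, 2.17 ± 0.266 with IL-13, 1.47 ± 0.154 with butyrate and 1.60 ± 0.686 in untreated enteroids (SD, n = 3 each). It rose with both agents over untreated and over butyrate, and over IL-13 it was not called (0.87 ± 0.34, adjusted p = 0.081 in edgeR). Its log2 fold change was 1.34 ± 0.34 over untreated (adjusted p = 0.0025 in edgeR; 0.00046 to 0.038 in the alternatives) and 1.42 ± 0.34 over butyrate (adjusted p = 0.0023; 0.00029 to 0.051). Butyrate + IL-13 replicate 3, one of the Lars2-high libraries, held the highest Krt15 level, 6.00 CPM against 3.16 and 2.71 in the other 2; without both Lars2-high libraries the values were 0.90 over untreated and 1.00 over butyrate.

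The row named Krt83 in the table, whose identifier (ENSMUSG00000047641, chromosome 15, 101431490 to 101438804) the GENCODE M21 annotation names Krt87, is a hair-type keratin gene beside Krt7 and near Krt84. It had 1, 1 and 2 counts with both agents, 20, 19 and 21 with IL-13, 20, 22 and 14 with butyrate, and 31, 31 and 33 in untreated enteroids. The both-agent libraries were below all others. In CPM that was 0.102 ± 0.0386 with both agents, 1.39 ± 0.0760 with IL-13, 0.906 ± 0.206 with butyrate and 1.46 ± 0.318 untreated (SD, n = 3 each). The log2 fold change with both agents was -3.73 ± 0.54 over untreated (adjusted p = 1e-05 in edgeR; 3.2e-06 to 0.00013 in the alternatives), -3.67 ± 0.55 over IL-13 (adjusted p = 0.00015) and -3.05 ± 0.57 over butyrate (adjusted p = 0.00026). With 4 counts over the 3 both-agent libraries, these sizes are loosely held. Thus hair-type genes of 1 cluster stood at opposite ends with both agents, Krt84 at its highest and the Krt83 row at its lowest.

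**Figure D4:**
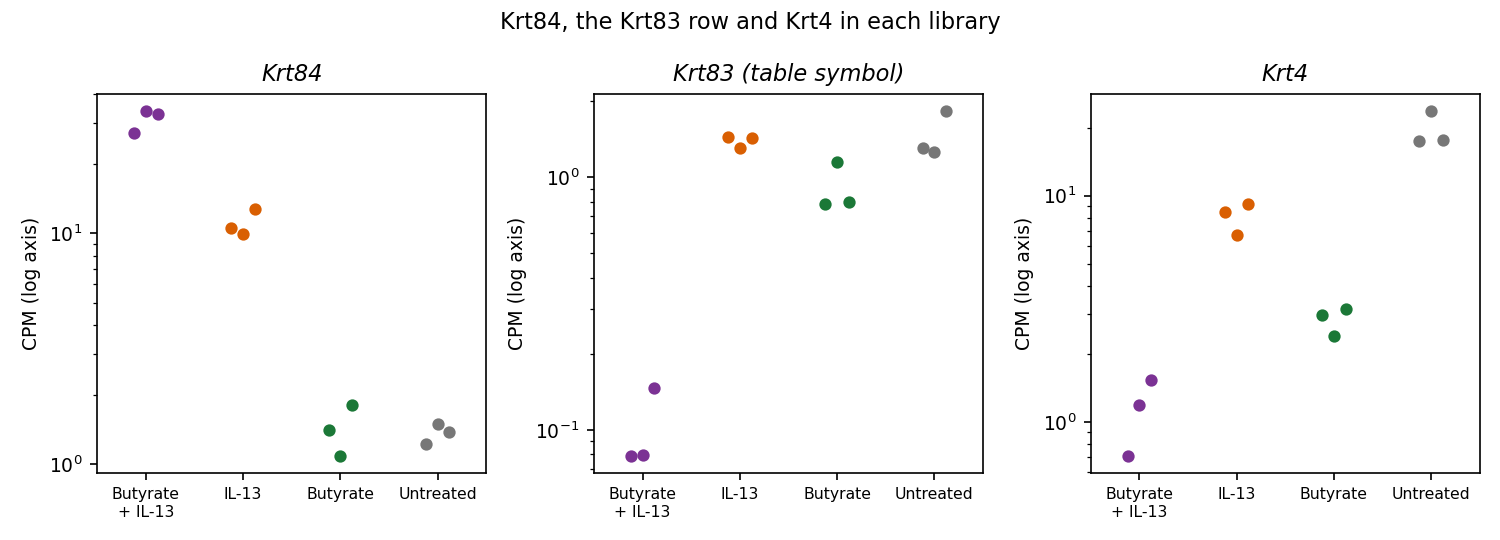
CPM in each library (points, log axis) of Krt84, the row named Krt83 in the deposited table, and Krt4, 3 type II keratin genes of chromosome 15. With both agents Krt84 is at its highest (27.1 to 33.8) while the other 2 are at their lowest (0.0791 to 0.146 and 0.712 to 1.54).

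For each keratin, the 3 other genes with the most similar course over the 12 libraries were found by the root-mean-square difference of mean-centred log2 CPM, among the 10215 genes averaging 50 counts or more. Nearest to Krt84 were Tgfbi (difference 0.310), Myh7b (0.411) and Aldh1a3 (0.437), where the spread of Krt84 itself was 1.90. Tgfbi, an extracellular matrix adhesion protein, had 1055 ± 56.1 CPM with both agents, 523 ± 33.3 with IL-13, 43.6 ± 2.96 with butyrate and 49.3 ± 1.66 untreated (SD, n = 3 each). Aldh1a3, a retinaldehyde dehydrogenase that makes retinoic acid, had 23.9 ± 4.20 CPM with both agents, 6.98 ± 1.88 with IL-13, 1.64 ± 0.185 with butyrate and 0.971 ± 0.140 untreated. Nearest to Krt4, whose own spread was 1.53, were Olfm4 (0.564), a stem cell marker of the crypt, Neurog3 (0.564), the transcription factor of enteroendocrine precursors, and Chga (0.630), an enteroendocrine granule protein. Olfm4 had 2.17 ± 0.391 CPM with both agents, 21.5 ± 2.38 with IL-13, 6.89 ± 2.45 with butyrate and 27.1 ± 2.83 untreated, and Neurog3 had 0.440 ± 0.248 CPM with both agents, 3.33 ± 0.891 with IL-13, 2.62 ± 0.404 with butyrate and 9.17 ± 1.55 untreated.

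Nearest to Krt80 (own spread 0.455) were Sp5 (0.182), Zfp503 (0.206) and Foxa3 (0.213). For the abundant keratins, whose own spread was 0.170 to 0.310, many genes run close and the names say little: Fam118b, Tmem14c and Mlx for Krt23, Dpf2, Psmc2 and Micall2 for Krt18, Sidt2, Ppap2c and Mapk3 for Krt8, Rara, Lsr and Ubl7 for Krt19, Clk3, Ywhah and Fam83h for Krt7, and Ppme1, Arntl and Pfkfb3 for Krt20.

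The junctions to which keratin filaments attach were followed with a list of 25 desmosome and hemidesmosome genes, of which 23 were in the table and 18 were tested. This list and those that follow were chosen with earlier results of these data known. Genes named from them are mainly those with the smallest adjusted p. Their counts and p-values are therefore a description and no independent support. With IL-13 over untreated 11 rose and 1 fell, where 21.8% of all genes were higher and 21.7% lower, and the median was 0.31, against -0.01 over all genes, on the log2 scale. With both agents over untreated 13 rose and 3 fell, where 28.2% of all genes were higher and 31.5% lower (median 0.49, against -0.05). With butyrate over untreated 3 rose and 0 fell (1 lower at an unadjusted p under 0.05, 0 in DESeq2), where 5.14% and 2.76% of all genes did (median 0.14, against -0.01). With both agents 4 rose and 1 fell over IL-13, where 9.85% and 11.3% of all genes did, and 10 rose and 2 fell over butyrate, where 22.9% and 24.9% did. Of the 4 over IL-13, Dst (0.59 ± 0.20, adjusted p = 0.047 in edgeR) was called in only 3 of 20 alternatives, and its groups overlapped. Dsg2 was called in all 20, Dsg3 in 18 and Dsp in 17. With library totals alone the counts were 8 and 3 with IL-13 and 8 and 4 with both agents over untreated, and 5 and 4 with both agents over butyrate. The interaction called 0 of the 18 in edgeR and in DESeq2, with 1 at an unadjusted p under 0.05.

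Plec, the giant linker that ties keratin filaments to hemidesmosomes, had 880 ± 222 CPM with both agents, 736 ± 85.3 with IL-13, 516 ± 25.3 with butyrate and 336 ± 19.8 untreated (SD, n = 3 each). It rose over untreated with both agents (log2 1.39 ± 0.14, adjusted p = 1.1e-07 in edgeR), IL-13 (1.13 ± 0.14, adjusted p = 2.9e-06) and butyrate (0.62 ± 0.14, adjusted p = 0.0074). Dst, another linker of hemidesmosomes, had 86.3 ± 28.9 CPM with both agents, 57.3 ± 18.2 with IL-13, 39.1 ± 5.14 with butyrate and 26.9 ± 1.96 untreated, and rose with both agents (1.69 ± 0.21, adjusted p = 1.9e-06 in edgeR) and IL-13 (1.09 ± 0.21, adjusted p = 0.00038). Evpl, a plakin of the desmosomal plaque, rose by 1.01 ± 0.18 with IL-13 (adjusted p = 0.00021 in edgeR), while its relative Ppl fell by 0.47 (SE 0.10, adjusted p = 0.0013). Lad1, an anchoring filament protein of the basement membrane zone, rose by 0.49 ± 0.07 with IL-13 (adjusted p = 3.4e-05 in edgeR).

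The desmosomal cadherin of simple epithelia, Dsg2, had 1065 ± 55.5 CPM with both agents, 793 ± 38.2 with IL-13, 766 ± 81.0 with butyrate and 582 ± 43.6 untreated (SD, n = 3 each). It rose with both agents (log2 0.87 ± 0.09, adjusted p = 1.4e-07 in edgeR), IL-13 (0.45 ± 0.09, adjusted p = 0.00048) and butyrate (0.39 ± 0.09, adjusted p = 0.0079), and the last was 0.35 with adjusted p = 0.065 without untreated replicate 3. Dsg3, a cadherin of stratified epithelia, rose to 31.1 ± 1.77 CPM with both agents, 15.7 ± 1.46 with IL-13 and 18.1 ± 4.19 with butyrate, against 7.60 ± 4.47 untreated. The log2 rise with IL-13 was 1.03 ± 0.27 (adjusted p = 0.0046 in edgeR), and 1.02 with adjusted p = 0.071 in a fit of the IL-13 and untreated libraries alone. Its butyrate rise (1.24 ± 0.26, adjusted p = 0.0054 in edgeR) was 1.16 with adjusted p = 0.077 without butyrate replicate 2, in a range of 2.8e-05 to 0.077 over the alternatives. Desmoplakin (Dsp), the plaque protein that binds keratin, had 1045 ± 153 CPM with both agents, 795 ± 97.1 with IL-13, 792 ± 26.8 with butyrate and 646 ± 25.0 untreated. It rose with both agents (0.69 ± 0.10, adjusted p = 1.3e-05 in edgeR). With IL-13 it rose by 0.30 ± 0.10 (adjusted p = 0.024), and the call was lost without untreated replicate 2 (0.31, adjusted p = 0.052) or 3 (0.27, 0.089) or IL-13 replicate 2 (0.21, 0.15) or 3 (0.29, 0.066), and with library totals alone (0.13, adjusted p = 0.28).

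**Figure D5:**
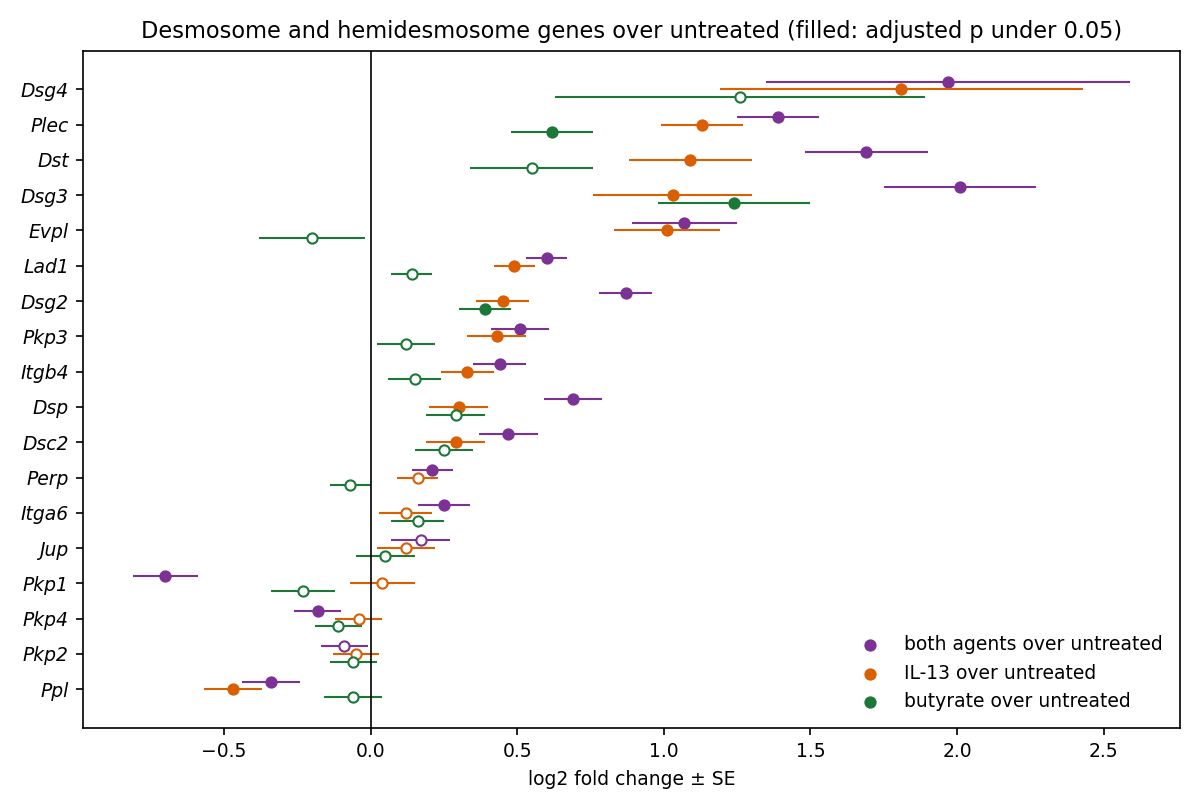
Log2 fold change over untreated enteroids, with its SE, of the 18 tested desmosome and hemidesmosome genes for both agents, IL-13 and butyrate; filled points passed an adjusted p of 0.05 in edgeR. With both agents 13 genes lie to the right of 0 and passed, Plec at 1.39 and Dsg2 at 0.87 among them, and 3 lie to the left and passed.

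Among 18 other intermediate filament genes, 16 were in the table and 13 were tested. With both agents over untreated 0 rose in edgeR (3 in DESeq2 and 3 at an unadjusted p under 0.05) and 6 fell, where 28.2% of all genes were higher and 31.5% lower (median -0.74, against -0.05 over all genes). With IL-13 1 rose and 3 fell, where 21.8% and 21.7% of all genes did (median -0.16, against -0.01), and with butyrate 1 rose and 4 fell, where 5.14% and 2.76% did (median -0.29, against -0.01). The nuclear lamins Lmnb1 and Lmnb2 fell with IL-13: Lmnb1 had 34.9 ± 1.96 CPM with both agents, 48.9 ± 4.21 with IL-13, 104 ± 6.04 with butyrate and 127 ± 5.93 untreated (SD, n = 3 each). Its log2 fold change was -1.87 ± 0.09 with both agents (adjusted p = 8.5e-12 in edgeR) and -1.38 ± 0.09 with IL-13 (adjusted p = 8.7e-10), and that of Lmnb2 was -0.95 ± 0.09 (adjusted p = 3.9e-08) and -0.56 ± 0.09 (adjusted p = 3.6e-05). Nefm, a neurofilament gene, fell with butyrate by 1.61 (SE 0.28, adjusted p = 0.0013 in edgeR), with 2.09 ± 1.15 CPM with both agents, 6.53 ± 1.31 with IL-13, 2.38 ± 0.768 with butyrate and 7.32 ± 1.05 untreated. The Nefl rise with IL-13 (1.26 ± 0.45, adjusted p = 0.031 in edgeR) was lost without any one untreated replicate or IL-13 replicate 1 or 2, at 1.03 to 1.41 with adjusted p of 0.051 to 0.13. Vimentin (Vim), the filament of mesenchymal cells, had 0.344 ± 0.359 CPM with both agents, 1.39 ± 0.318 with IL-13, 1.26 ± 0.504 with butyrate and 1.82 ± 0.439 untreated.

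The cornified envelope and squamous list holds genes that act beside stratified keratins in skin, and of its 25 genes 18 were in the table and 10 were tested. With IL-13 over untreated 0 rose and 1 fell (the same counts at an unadjusted p under 0.05 and in DESeq2), where 21.8% and 21.7% of all genes did. The fall was that of Grhl3 (-0.91 ± 0.35, adjusted p = 0.044 in edgeR). It was called in 11 of 19 alternatives, with adjusted p of 0.017 to 0.18. With butyrate 0 rose and 0 fell in edgeR (1 higher and 1 lower at an unadjusted p under 0.05, 1 higher and 0 lower in DESeq2), where 5.14% and 2.76% did. With both agents 1 rose (Sbsn) and 4 fell (Anxa1, Crct1, Grhl3, Lor), where 28.2% and 31.5% of all genes did. With both agents the median log2 fold change was -0.63, against -0.05 over all genes, and with library totals alone 0 rose and 8 fell. Grhl3, a transcription factor of the epidermal barrier, had 0.532 ± 0.283 CPM with both agents, 1.30 ± 0.364 with IL-13, 1.77 ± 0.299 with butyrate and 2.46 ± 0.660 untreated (SD, n = 3 each), and fell with both agents by 2.18 (SE 0.41, adjusted p = 0.00019 in edgeR). Lor, the main protein of the cornified envelope, fell with both agents by 1.29 (SE 0.36, adjusted p = 0.0053 in edgeR).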

How the data were processed

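Per the labels' protocols, directional poly(A) RNA was read in 12 libraries. The authors deposited 1 table of whole-number counts per gene and library, not normalised, with the p-value, FDR and log2 fold change of their DESeq comparison of untreated and IL-13 libraries, per the file headers. These headers limit the rows to a corrected p under 1.0 in it, and each row had at least 1 count over those libraries, which leaves out genes found in butyrate libraries alone. Processing notes of the submitters name mm10; aligner, counting tool and use of strand were not given in the sources used here. Untreated columns carry an abbreviation, read as untreated because it was the one group left. The 18092 rows became 18068 genes after the rows of 23 symbols were summed.

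edgeR 4.0.16 (R 4.3.3) was run with its quasi-likelihood test (robust, TMM, filterByExpr) in 1 fit of all 12 libraries with a coefficient per group; 13750 genes were kept and 4318 removed, and 8 residual degrees of freedom remained. Calls were made at an adjusted p under 0.05 (Benjamini-Hochberg, all genes tested) in 6 comparisons. The interaction is the butyrate effect with IL-13 minus that without. The SE is the log2 fold change over the root of its F statistic, and CPM per kb used the longest principal transcript of GENCODE M21. The fit was tested on simulated data. Alternatives were RLE scaling, library totals with no factor, DESeq2 1.42.0, no filter, a mean of 50 counts or more, a replicate block, only the groups compared, and each library left out; leaving out both Lars2-high libraries was added after the data were seen. Members and lists were chosen with earlier results of these data known. Named genes were the 9 members, the other keratins, and some genes of each list. The list genes were drawn from the 4 with the smallest adjusted p with IL-13 and the 4 with butyrate. Ppl, Vim, Anxa1, Crct1, Krt16, Krt27, Krt32, Sprr1a and Ivl were named after their values were seen. All replicate pairs differed beyond sampling noise (chi-square over degrees of freedom, 3.82 to 35.8). Plots used matplotlib 3.10.9 in Python 3.11.15.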

Additional observations from a re-analysis of the deposited data

Results flagged for a closer look

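The butyrate effect on Krt84 differed with IL-13 and without it by 1.44 ± 0.28 on the log2 scale: 1.50 ± 0.15 with both agents over IL-13, against 0.06 ± 0.24 with butyrate over untreated. The row named Krt83 also differed, by -2.99 ± 0.68 (edgeR adjusted p = 0.045), from -3.67 ± 0.55 with both agents over IL-13 and -0.68 ± 0.34 with butyrate over untreated. The Krt83 call held when butyrate replicate 3 was left out and was lost for each of the other 11 libraries left out in turn; over all alternatives its adjusted p ran from 0.039 to 0.13. Krt20 was not called for the interaction (-0.44 ± 0.15), and stood at -0.64 and was called without both Lars2-high libraries.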

How the results depend on the processing

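With library totals alone, the keratins called with both agents over untreated came to 5 (3 higher, 2 lower), not 9, and Krt19 turned to a log2 fold change of -0.06. That scaling put the median log2 fold change of all genes at -0.34 with both agents over untreated (-0.05 with TMM) and the share of higher calls to 19.7% with both agents over IL-13 (46.5% with TMM), 22.6% with both agents over butyrate (47.9%) and 20.6% for the interaction (29.4%). DESeq2 called 276 genes for the interaction (109 higher, 167 lower), not 119. With 1 library left out, the genes called ranged from 4923 to 6473 for IL-13, 559 to 1395 for butyrate and 7376 to 8558 for both agents over untreated, 1935 to 3451 for both agents over IL-13, 5586 to 6632 over butyrate and 55 to 213 for the interaction; the keratins called ranged from 5 to 8, 2 to 3, 6 to 9, 2 to 4, 5 to 7 and 0 to 1 in the same order. The cause of these shifts was not tested.

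Same-numbered libraries did not visibly deviate together (correlation -0.151 to 0.0965 over 18 pairs, against -0.215 to 0.168 over 36 pairs of different number). With 3 libraries per group this cannot exclude that same-numbered libraries shared a culture or batch. With a replicate block the counts of calls were 5866, 978, 8109, 2757, 6447 and 114 in that order, against 5977, 1086, 8205, 2912, 6564 and 119. Under the block Krt19 (0.23) and Krt80 (-0.94) with both agents over untreated and Krt18 with both agents over IL-13 (0.22) were not called, and Krt7 with both agents over butyrate (0.24) was. Of 1065 keratin log2 fold changes under the alternatives, 1042 moved by less than the SD between replicates, combined over the groups compared as the root of the summed squares, 22 by more, and 1, Krt19 above, was called and changed sign. Changes of sign among values that were not called are within the first 2 counts. The 22 and the 1 all came from scaling by library totals alone. Leaving out 1 of 3 libraries shifts a group mean by less than its SD. This measure could therefore hardly count such a fit as moved. For these fits, which are among the 1042, it does not show stability. Krt4, Krt18, Krt23 and Krt84 kept their calls with IL-13 and with both agents over untreated in all 20 alternatives. These are refits of the same libraries for genes chosen with their counts known, so the calls describe and do not test. Depth limits Krt80 and the Krt83 row, with 8 and 1 to 2 counts per both-agent library.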
